A study of Mus musculus with 71 samples.

Results

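The ventral tegmental area (VTA) of mice that had self-administered cocaine was compared with that of mice that had self-administered saline, 1 day after the last session. The members are the 12 RNA-seq libraries labelled VTA and 1 day, 6 after cocaine and 6 after saline, of 71 libraries in the series, and the 15042 genes with a mean level of at least 0.5 RPKM over these 12. The table lists 37681 genes. RPKM values are read counts divided by the gene's length and the library's total, and allow levels to be compared between genes. All mice were wild type, labelled C57BL/6 (C57BL/6J in the study's methods), and, by the study's methods, had first been trained to work for food and then carried a jugular catheter, through which they took cocaine or saline in daily sessions, so training and surgery were shared by both groups. The VTA was micro-punched from brain sections. Set beside these libraries are those of the VTA at 28 days (6 after cocaine and 5 after saline) and of the nucleus accumbens (NAc) and prefrontal cortex (PFC) at 1 day (6 of each treatment per region), from mice treated alike. The labels do not say whether a library holds tissue from 1 mouse, so the p-values measure the spread between these libraries.

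The VTA holds most of the dopamine neurons that project to the NAc and PFC, together with GABA and glutamate neurons and glia. Cocaine blocks the dopamine transporter, which slows the clearance of dopamine released by these neurons, and the axon terminals of the VTA are a main site of that action. Dopamine neurons make their transmitter with tyrosine hydroxylase (Th) and aromatic amino acid decarboxylase (Ddc), load it with Slc18a2, take it back up with Slc6a3 and sense it with the autoreceptor Drd2. In bulk tissue, fewer cells of a type and less RNA per cell cannot be told apart.

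Genes of midbrain dopamine neurons were expressed in every library, though these genes alone do not place the punch within the VTA. Th stood between 103 and 275 RPKM after cocaine (median 206) and between 154 and 373 RPKM after saline (median 319.9). Slc6a3, the dopamine transporter, stood between 149 and 394 RPKM after cocaine (median 297) and between 277 and 651 RPKM after saline (median 523). Pitx3, a transcription factor of midbrain dopamine neurons, lay between 0.137 and 0.64 RPKM and missed the limit on low values. By the study's methods the mice were of both sexes, yet Xist, the RNA that coats the inactive X chromosome, reached at most 0.0425 RPKM in any library, and the Y-linked Kdm5d was between 5.8 and 7.45 RPKM in all of them.

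Neighbouring tissue differed between the libraries. Cocaine replicate 6 stood apart: it lay at the far end of the first principal component, which held 47.6% of the variance, and had a median correlation with the other libraries of 0.932, against between 0.968 and 0.983 for the rest. In that library Pmch, a peptide of the lateral hypothalamus, was at 582 RPKM, while the others ranged from 0.886 to 9.72. Tph2, the serotonin-synthesizing enzyme of the raphe nuclei, ranged from 1.1 RPKM in saline replicate 1 to 158 in cocaine replicate 5. The 14 genes of meningeal and perivascular fibroblasts had a mean level on the log2(RPKM + 0.1) scale of 2.20 to 5.53 after cocaine (median 3.79) and of 1.05 to 3.29 after saline (median 2.26). Cocaine replicates 2, 3, 4 and 6 lay above every saline library, and cocaine replicates 1 and 5 lay within the saline range. The 7 tested blood cell genes had a median log2 fold change of 1.17, with 0 passing the test. The part of these tissues in the results was not tested. Depth overlapped between the groups, as reads recovered from the RPKM values totalled between 23007226 and 29007950.

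**Figure D1:**
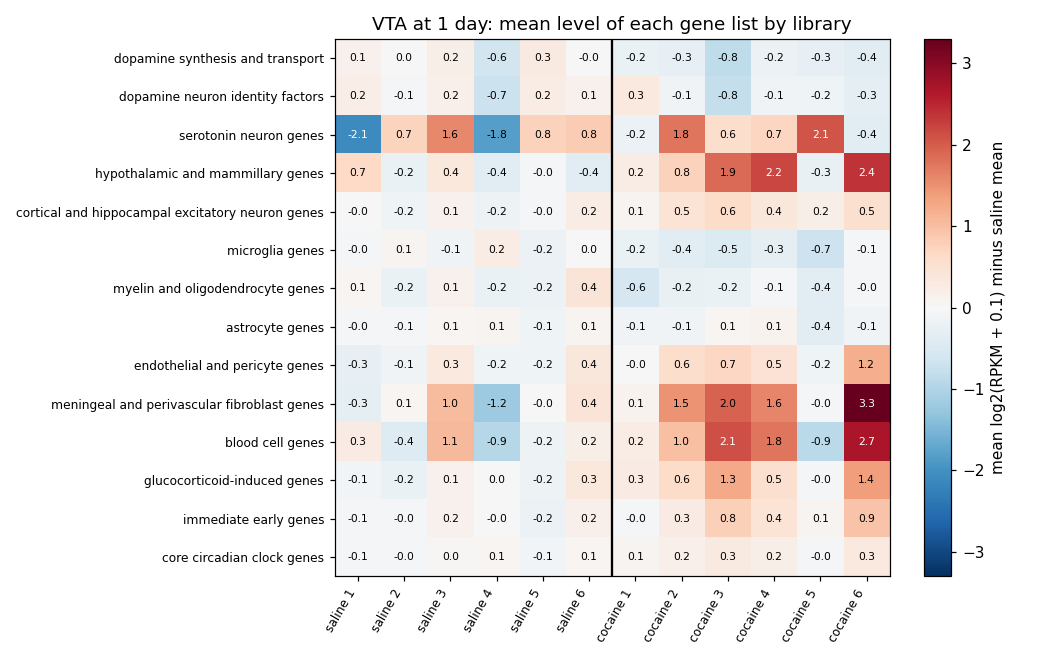
Mean level of 14 gene lists in each of the 12 libraries of the VTA at 1 day, as the mean log2(RPKM + 0.1) of the list's tested genes minus its saline mean, with colour and number showing the same difference. Cocaine replicates 2, 3, 4 and 6 were highest for fibroblast genes and cocaine replicate 3 lowest for dopamine genes, and microglia genes were below the saline mean in all 6 cocaine libraries.

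Of the 15042 genes, 24 (0.16%) were higher and 4 (0.0266%) lower after cocaine at an adjusted p under 0.05 in limma. A wider limit of 0.25, a cutoff given in the study's methods, passed 920 genes (6.12%) that were higher and 349 (2.32%) that were lower. That split depended on the setting: it was 447 higher and 788 lower with each library centred on its median, 1215 and 907 in edgeR on recovered reads, 1544 and 1079 in DESeq2, 275 and 307 with the fibroblast level as a covariate and 70 and 188 with the cortical level. Leaving out 1 library gave between 220 (without saline replicate 1) and 2081 (without cocaine replicate 5) higher, and between 98 and 564 lower in the same fits. Counts of list members at 0.25 rest on this limit, and are to be read against the shares of 6.12% and 2.32% over all genes. In 27 of the 28 called genes, all but P2ry13, no cocaine library overlapped any saline library. Groups that did not overlap were found for 196 genes (1.3%) with all 6 cocaine libraries above and 55 (0.366%) with all 6 below. Over all genes tested the median log2 fold change was 0.03. The count model moved the split of directions, since edgeR on recovered reads called 28 genes higher and 27 lower, and DESeq2 406 and 289. Without cocaine replicate 6 limma called 54 genes (46 higher and 8 lower, 24 of them among the 28), whereas without cocaine replicate 3 or saline replicate 1 it called 0, with 1787 and 1704 genes at an unadjusted p under 0.05. Without cocaine replicate 1, 2, 4 or 5 it called 30 (16 higher and 14 lower), 2, 5 and 2 genes, and without saline replicate 2, 3, 4, 5 or 6 it called 1, 33 (26 higher and 7 lower), 6, 5 and 3. With the fibroblast level as a covariate, a setting chosen after seeing the data, limma called 2 genes, and with the level of cortical and hippocampal neuron genes 0, with 1436 at an unadjusted p under 0.05. The group means of these levels themselves differed, by 1.40 and 0.38 on the log2 scale. The cortical list also holds the called gene Camk2a. Tissue content and treatment therefore cannot be told apart in these fits.

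**Figure D2:**
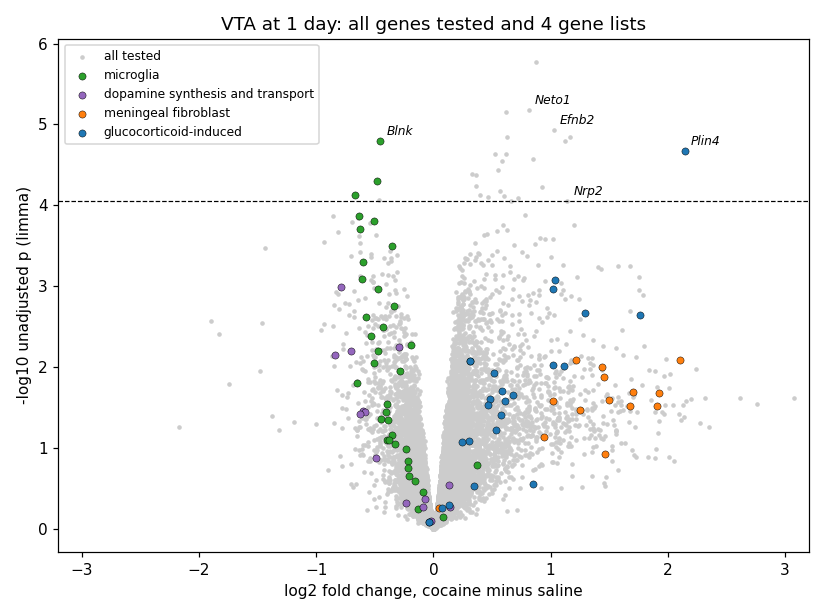
Log2 fold change of cocaine over saline against the negative log10 of the unadjusted p for the 15042 genes tested in the VTA at 1 day, with 4 gene lists in colour and the dashed line at the largest p that passed an adjusted p of 0.05. Microglia genes lie mostly left of 0, meningeal fibroblast genes lie right of 0 and below the line, and Plin4 lies alone at the far right above the line.

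The called genes included 3 that guide axons. Efnb2, a membrane-bound ephrin ligand that signals to Eph receptors on touching cells, stood between 5.55 and 7.42 RPKM after cocaine (median 6.7) and between 2.31 and 4.33 RPKM after saline (median 3.19). Every cocaine library was above every saline one, with a log2 fold change of 1.03 (SE 0.144, adjusted p = 0.0301). The gene lies at chr8:8617434-8661239 (mm9, minus strand). Nrp2, a co-receptor for class 3 semaphorins and VEGF, stood between 9.21 and 15.2 RPKM after cocaine (median 13.5) and between 3.46 and 9.12 RPKM after saline (median 6.11). Here the lowest cocaine library, replicate 6, was barely above saline replicate 3, and the test gave a log2 fold change of 1.14 (SE 0.199, adjusted p = 0.0479). Slit2, a secreted repellent for Robo-bearing axons, stood between 7.71 and 9.79 RPKM after cocaine (median 8.77) and between 4.99 and 6.12 RPKM after saline (median 5.96). Its groups were separate, with a log2 fold change of 0.62 (SE 0.0824, adjusted p = 0.0301). Nrp2 is at chr1:62749859-62865269 and Slit2 at chr5:48374394-48697521, both on the plus strand of mm9, and Slit2 holds a microRNA gene, Mir218-1, within it. Of 49 tested axon guidance ligands and receptors these 3 rose and 0 fell at 0.05, with a list median of 0.086. At 0.25, 8 of the 49 were higher and 5 lower, against 6.12% and 2.32% of all genes tested. With the fibroblast level as a covariate 5 were higher and 1 lower at 0.25, and without cocaine replicate 6 the counts were again 8 and 5. Ephb1, an Eph receptor, had a log2 fold change of -0.25 (SE 0.0701, adjusted p = 0.147). The list's median at 28 days was 0.16, over the same 49 genes.

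**Figure D3:**
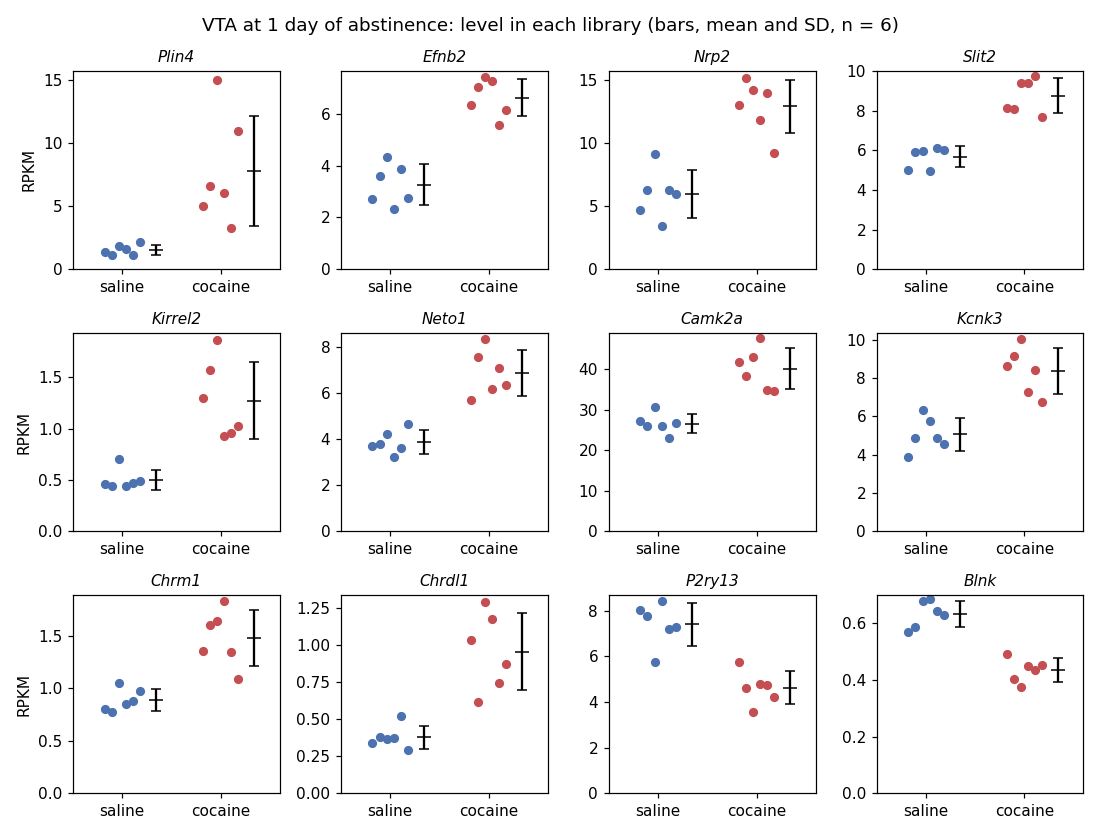
RPKM in each of the 6 saline and 6 cocaine libraries for 12 of the genes called in the VTA at 1 day, with the mean and SD of each group beside the points and every axis starting at 0. The groups are separate in 11 panels, and in P2ry13 cocaine replicate 1 slightly exceeds saline replicate 3.

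Kirrel2, a nephrin-like adhesion molecule of the immunoglobulin superfamily, was among the 10 largest differences. It stood between 0.925 and 1.86 RPKM after cocaine (median 1.17) and between 0.442 and 0.702 RPKM after saline (median 0.463). The highest saline value, in replicate 3, was still below the lowest cocaine value, and the difference gave a log2 fold change of 1.16 (SE 0.167, adjusted p = 0.0301). Chrdl1, a secreted antagonist of bone morphogenetic proteins that in brain is made by astrocytes, stood between 0.614 and 1.29 RPKM after cocaine (median 0.955) and between 0.292 and 0.521 RPKM after saline (median 0.37). Its test gave a log2 fold change of 1.12 (SE 0.162, adjusted p = 0.0301). Among 29 tested cadherins, cell adhesion molecules of another family, limma called 0, with 6 at an unadjusted p under 0.05 and 1 called by edgeR and 3 by DESeq2 on recovered reads. At 0.25, 1 was higher and 4 were lower, against 6.12% and 2.32% of all genes tested. Cdh20 had a log2 fold change of -0.31 (SE 0.0654, adjusted p = 0.0922).

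Neto1, an auxiliary subunit of kainate and NMDA receptors, was the 1 called gene among 31 tested ionotropic glutamate receptors and auxiliary subunits. Of these 16 had positive and 15 negative fold changes, and the median was 0.0012, turning to -0.07 with median centring. At 0.25, 2 of the 31 were higher and 0 lower, against 6.12% and 2.32% of all genes tested. Neto1 stood between 5.68 and 8.35 RPKM after cocaine (median 6.72) and between 3.21 and 4.66 RPKM after saline (median 3.73). All cocaine libraries lay above all saline ones, giving a log2 fold change of 0.81 (SE 0.108, adjusted p = 0.0301). Kcnk3, a two-pore potassium leak channel sensitive to acid, stood between 6.74 and 10.1 RPKM after cocaine (median 8.53) and between 3.9 and 6.33 RPKM after saline (median 4.89). The groups were separate again, with a log2 fold change of 0.72 (SE 0.125, adjusted p = 0.0479). Kcnh5, a voltage-gated potassium channel of the ether-a-go-go family, had a log2 fold change of 0.63 (SE 0.0898, adjusted p = 0.0301). Cacna1c, the pore of the Cav1.2 L-type calcium channel, had a log2 fold change of 0.37 (SE 0.059, adjusted p = 0.0401), and overlaps Dcp1b on the other strand. Camk2a, the calcium-dependent kinase of excitatory synapses, stood between 34.7 and 47.7 RPKM after cocaine (median 40) and between 23.1 and 30.5 RPKM after saline (median 26.2). All cocaine libraries exceeded all saline ones, with a log2 fold change of 0.59 (SE 0.0905, adjusted p = 0.0328). Camk2a belongs to the cortical and hippocampal list, whose mean log2 level was 2.42 to 2.93 after cocaine and 2.15 to 2.55 after saline. Slc17a7, the vesicular glutamate transporter of cortical neurons, ranged from 1.18 RPKM in saline replicate 4 to 70.5 in cocaine replicate 6. In that last library Camk2a, at 34.7 RPKM, was the lowest of the cocaine group. The cortical and hippocampal list's mean log2 level was 2.83 there, and highest in cocaine replicate 3, at 2.93. The part of cortical tissue in the level of Camk2a was not tested. Of the list's 17 tested genes, 1 (Camk2a) rose at 0.05. At 0.25, 4 of the 17 were higher and 1 lower, against 6.12% and 2.32% of all genes tested. Unc13b, a synaptic vesicle priming protein, had a log2 fold change of 0.60 (SE 0.103, adjusted p = 0.0479). Cocaine replicate 6 held its highest value.

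Receptors for acetylcholine and GABA held members on both sides. Chrm1, a muscarinic receptor, stood between 1.08 and 1.84 RPKM after cocaine (median 1.48) and between 0.773 and 1.05 RPKM after saline (median 0.867). The groups did not overlap, with a log2 fold change of 0.66 (SE 0.115, adjusted p = 0.0479). It was the 1 called gene among 15 tested nicotinic and muscarinic receptors. At 0.25, 3 of the 15 were higher and 1 lower, against 6.12% and 2.32% of all genes tested. The lower one was Chrna4, a nicotinic subunit abundant in dopamine neurons, which stood between 28.2 and 50.4 RPKM after cocaine (median 38) and between 51.8 and 67.6 RPKM after saline (median 58.9). No library of one group reached the other, yet a log2 fold change of -0.63 (SE 0.125, adjusted p = 0.087) missed 0.05. Of 14 GABA-A receptor subunits limma called 0, with 4 at an unadjusted p under 0.05 and 0 called by edgeR and 3 by DESeq2 on recovered reads. At 0.25, 2 were higher and 2 lower, against 6.12% and 2.32% of all genes tested. Gabrb2 was -0.78 on the log2 scale, and Gabrd, which forms extrasynaptic receptors, was 0.90, with adjusted p of 0.17 and 0.117.

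Plin4, a lipid droplet coat protein, had the largest fold change of the called genes. It stood between 3.26 and 15 RPKM after cocaine (median 6.32) and between 1.11 and 2.18 RPKM after saline (median 1.47). The lowest cocaine library, replicate 5, was above the highest saline one, and the test gave a log2 fold change of 2.14 (SE 0.321, adjusted p = 0.0315), a fold of 4.42. Plin4, at chr17:56240014-56249225 on the minus strand of mm9, overlaps Hdgfrp2 on the plus strand, and without stated strand counting their reads cannot be told apart. It belongs to a list of 24 tested genes that glucocorticoids induce, of which this 1 rose at 0.05, 10 were higher at 0.25 and 0 lower, with a median log2 fold change of 0.55. Several members stand in other lists too, Mertk among microglia genes and Dusp1 among immediate early genes. Others higher at 0.25 were Sult1a1 at 1.76, Fmo2 at 1.29, Hif3a at 1.04 and Zbtb16 at 1.02, with adjusted p between 0.106 and 0.128. Fkbp5, a chaperone of the glucocorticoid receptor, stood between 7.09 and 34.2 RPKM after cocaine (median 11.3) and between 5.71 and 7.08 RPKM after saline (median 6.51). The groups met at 7.09 RPKM in cocaine replicate 5 and 7.08 in saline replicate 4, cocaine replicates 3 and 6 were highest, and the adjusted p was 0.203.

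Within the cocaine group the glucocorticoid-induced genes were highest where the fibroblast genes were. The list's mean log2 level was 4.28 in cocaine replicate 6 and 4.17 in replicate 3, the same libraries that had the highest fibroblast levels of 5.53 and 4.19. In cocaine replicates 1 and 5 the list's level was 3.19 and 2.87, within the saline range of 2.68 to 3.25. With the fibroblast level as a covariate the list median was 0.14, and 2 of the 24 were higher at 0.25. Without cocaine replicate 6 it was 0.39, with 8 higher. Whether the fibroblast content has a part in this list's level was not tested.

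**Figure D4:**
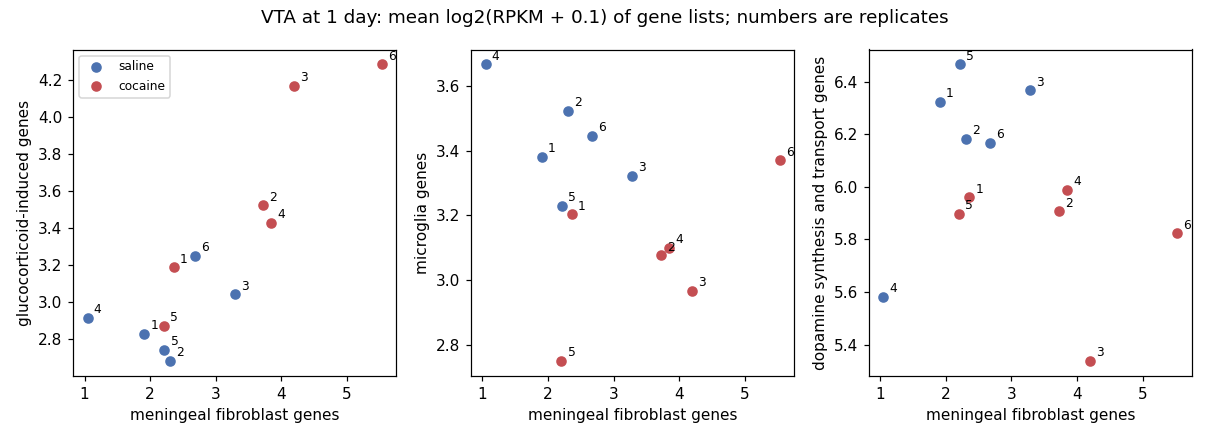
Mean log2(RPKM + 0.1) of 3 gene lists against that of the meningeal fibroblast genes in the 12 libraries of the VTA at 1 day, with replicate numbers beside the points. Libraries high in fibroblast genes were also high in glucocorticoid-induced genes, and cocaine replicate 3 and saline replicate 4 were lowest for dopamine genes.

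Microglia, the resident macrophages of the brain, gave 3 of the 4 genes that fell. Of 37 tested members, 3 fell at 0.05, among them Blnk and P2ry13, 19 were lower at 0.25 and 1 (Mertk, a receptor for dying cells, also glucocorticoid-induced) was higher, with a median of -0.39. Over all genes tested 0.0266% fell at 0.05, and 2.32% were lower and 6.12% higher at 0.25. P2ry13, a receptor for ADP, stood between 3.58 and 5.77 RPKM after cocaine (median 4.69) and between 5.74 and 8.44 RPKM after saline (median 7.55). Cocaine replicate 1 overlapped saline replicate 3, with a log2 fold change of -0.67 (SE 0.115, adjusted p = 0.0479). P2ry13 lies within Med12l, which is on the other strand. Blnk, a signalling adaptor of immune cells, was low in all libraries, standing between 0.373 and 0.491 RPKM after cocaine (median 0.441) and between 0.568 and 0.682 RPKM after saline (median 0.634). The test gave a log2 fold change of -0.45 (SE 0.0659, adjusted p = 0.0301). Cx3cr1, the fractalkine receptor, stood between 11.8 and 19.1 RPKM after cocaine (median 14) and between 20.1 and 27.4 RPKM after saline (median 21.8) and the groups did not overlap, but its adjusted p was 0.0661.

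Siglech, Ctss and Itgam, whose groups did not overlap, and P2ry12, whose groups did, differed by -0.63, -0.50, -0.60 and -0.61 on the log2 scale, with adjusted p between 0.0704 and 0.106. Of all 37, 8 had groups that did not overlap, 34 had a negative fold change and the lowest was -0.67. Over all genes tested the groups did not overlap for 0.366% with cocaine lower and 1.3% with cocaine higher. The mean level of the list was 2.75 to 3.37 after cocaine and 3.23 to 3.67 after saline, so the groups overlapped, although all 6 cocaine libraries were below the saline mean. The list median was -0.48 without cocaine replicate 6, with 27 lower at 0.25, and -0.44 with the fibroblast level as a covariate, with 14 lower. In the libraries of 28 days all 37 had negative fold changes, with a median of -0.38 and none called by edgeR. Some other lists were lower at 28 days too. The median was -0.38 for myelin genes (22 of 23 negative), -0.44 for endothelial and pericyte genes and -1.10 for fibroblast genes. It was -0.027 for astrocyte and 0.088 for oligodendrocyte precursor genes. For other glia at 1 day, 4 of 23 myelin genes, 3 of 13 oligodendrocyte precursor genes and 5 of 22 astrocyte genes were lower and 0 higher, at 0.25, with medians of -0.22, -0.14 and -0.16. With the fibroblast level as a covariate 12 of the 23 myelin genes were lower at 0.25, with a median of -0.46. The counts were 1 and 2 for the precursor and astrocyte genes. Olig1, a transcription factor of the oligodendrocyte lineage, stood between 32.3 and 37.2 RPKM after cocaine (median 35.7) and between 38.3 and 52.6 RPKM after saline (median 44.7), and Gja1, the astrocyte connexin, stood between 69.9 and 97.9 RPKM after cocaine (median 79.7) and between 96.5 and 113 RPKM after saline (median 102). Their adjusted p were 0.0922 and 0.106.

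No gene of dopamine synthesis and transport was called by limma, with 7 at an unadjusted p under 0.05 and 0 called by edgeR and 4 by DESeq2 on recovered reads. Of 14 tested genes of dopamine synthesis and transport, 12 had negative fold changes, 4 were lower at 0.25 (Aldh1a1, Drd2, Slc6a3 and Qdpr), 0 were higher, and the median was -0.39. Slc6a3 differed by -0.84 on the log2 scale (adjusted p = 0.189) and Drd2 by -0.70 (adjusted p = 0.181). Th differed by -0.60 (adjusted p = 0.292), and all cocaine libraries were below the saline mean. The lowest values were 103 RPKM in cocaine replicate 3 and 154 in saline replicate 4. Aldh1a1, an aldehyde dehydrogenase of ventral tier dopamine neurons, stood between 225 and 497 RPKM after cocaine (median 331) and between 417 and 776 RPKM after saline (median 594). Its near copy Aldh1a7 had the largest drop among separated genes, with a log2 fold change of -1.43 (SE 0.291, adjusted p = 0.0922), and stood between 2.79 and 10.2 RPKM after cocaine (median 4.92) and between 11.6 and 18.6 RPKM after saline (median 14.3). How reads were divided between these near copies is not given in the sources used here, so both values are uncertain. Cocaine replicate 3 and saline replicate 4 were also the libraries lowest in the list as a whole, at 5.34 and 5.58.

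With the fibroblast level as a covariate the synthesis and transport list had 3 lower at 0.25 and a median of -0.42. Of 15 tested identity factors, 11 had negative fold changes, with a median of -0.32. At 0.25, 1 was higher and 1 lower, against 6.12% and 2.32% of all genes tested. Satb1 was -0.49 and Bcl11a 0.62 on the log2 scale. Of 19 subtype and excitability genes, 5 were lower at 0.25 and 0 higher. Kcns3, a modulatory potassium channel subunit, stood between 5.52 and 7.67 RPKM after cocaine (median 6.59) and between 7.55 and 12.5 RPKM after saline (median 10.4) and had an adjusted p of 0.0798. Kcnd3, a subunit of the A-type potassium current, and Sncg were -0.60 and -0.48. The median of the 14 synthesis and transport genes stayed negative when any 1 library was left out, ranging from -0.61 to -0.30, and was -0.028 at 28 days. At 28 days the identity factors had a median of 0.24, with 13 of 15 positive. The subtype and excitability genes had a median of 0.16 then, with 15 of 19 positive.

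The other called genes lie outside these lists. Higher after cocaine were Il18bp, a decoy for the cytokine IL-18, at 0.85 on the log2 scale, and Aoc2, an amine oxidase, at 0.62. Pxdn, a peroxidase that crosslinks collagen IV, was 0.36. Zbtb7c, a zinc finger repressor, was 0.93, Tead1, a transcription factor of the Hippo pathway, 0.39, Pard3b, a cell polarity protein, 0.57, and Tmem2, a hyaluronidase, 0.55. Tead1 and Pard3b each overlap a second annotated entry of the same name on the same strand. How reads were divided between these entries is not given in the sources used here. Ttll4, a tubulin glutamylase, and Rbm12b, an RNA-binding protein, differed by 0.33 and 0.46. The pseudogene E530001F21Rik had the smallest adjusted p, 0.0255, and a log2 fold change of 0.87, and as a pseudogene it could share reads with a near copy. It was called in 10 of the 12 fits that left out 1 library and Neto1 in 6, while Rbm12b and 4632428C04Rik were called in none. The long noncoding RNA 4632428C04Rik was lower, at -0.47. Over all called genes the adjusted p was at most 0.0479.

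Beyond the called genes, the largest separated differences at the wider limit had their highest value in cocaine replicate 6 for several genes. Sult1a1, a sulfotransferase, stood between 8.6 and 81.7 RPKM after cocaine (median 19.3) and between 5.09 and 8.51 RPKM after saline (median 5.63), and its highest value was in that library. Col5a1, a fibrillar collagen chain, stood between 1.01 and 4.32 RPKM after cocaine (median 1.26) and between 0.164 and 0.696 RPKM after saline (median 0.492), the highest again in replicate 6. Gdf10, a growth factor of the TGF-beta family, and Insl6, an insulin-like peptide, had log2 fold changes of 1.40 and 1.12, with replicate 6 the highest too. Chst15, a chondroitin sulfate sulfotransferase, was 1.11. Sult1a1 overlaps Ccdc101 and Chst15 overlaps Fgfr2 in the annotation. Kit, the receptor for stem cell factor, stood between 8.48 and 16.7 RPKM after cocaine (median 12) and between 3.57 and 7.6 RPKM after saline (median 5.31), where cocaine replicate 6 was the lowest of its group, and had a log2 fold change of 1.20 (SE 0.225, adjusted p = 0.0713). In the lower direction were Opalin, a myelin protein, at -0.70, Npas3, a neuronal transcription factor, at -0.70, Meox1 at -0.68, Ldoc1 at -0.64, Tyrp1 at -0.72 and Expi at -0.63. All of these had adjusted p between 0.0682 and 0.128.

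The study followed Nr4a1, a nuclear receptor induced by activity, and several other genes. Nr4a1 itself stood between 2.33 and 6.27 RPKM after cocaine (median 3.46) and between 2.45 and 3.89 RPKM after saline (median 2.64). Its groups overlapped, with a log2 fold change of 0.34 (SE 0.225, adjusted p = 0.503), and it was called under no alternative. Nr4a3, a related receptor, stood between 0.396 and 1.11 RPKM after cocaine (median 0.651) and between 0.148 and 0.359 RPKM after saline (median 0.322) at low levels, with a log2 fold change of 0.96 (SE 0.244, adjusted p = 0.127). The groups did not overlap, and cocaine replicates 3 and 6 were highest. Per2, a repressor of the circadian clock, stood between 3.92 and 9.09 RPKM after cocaine (median 5.58) and between 3.29 and 4.46 RPKM after saline (median 3.96), with a log2 fold change of 0.59 (SE 0.177, adjusted p = 0.177). The groups overlapped, since cocaine replicate 5 lay within the saline range. Cbl, a ubiquitin ligase, had a log2 fold change of 0.054 (SE 0.0827, adjusted p = 0.82). Cartpt, a neuropeptide precursor, stood at 435 RPKM in saline replicate 6 and between 0.676 and 12.5 in the other 11 libraries, so the saline mean rests on 1 library. Of 20 tested immediate early genes, 5 were higher at 0.25 and 0 lower, with a median of 0.37. Limma called 0 at 0.05, with 7 at an unadjusted p under 0.05 and 0 called by edgeR and 5 by DESeq2 on recovered reads. Fosl2 was 0.90, Egr1 0.73 and Npas4 0.40 on the log2 scale. The list's mean level was highest in cocaine replicates 6 and 3, at 2.06 and 1.92, and with the fibroblast level as a covariate 0 of the 20 passed 0.25.

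Clock genes are expressed in daily cycles and drive one another in a loop of activators and repressors. Of 23 tested, 19 had positive fold changes, 5 were higher at 0.25 (Per2, Per3, Cry1, Nr1d2 and Nfil3), 0 were lower, and the median was 0.11. Limma called 0 clock genes, with 10 at an unadjusted p under 0.05 and 0 called by edgeR and 2 by DESeq2 on recovered reads. Per3 stood between 10.2 and 18 RPKM after cocaine (median 12.1) and between 8.41 and 10.5 RPKM after saline (median 9.66), with a log2 fold change of 0.37 (SE 0.119, adjusted p = 0.195). The list's mean log2 level was highest in cocaine replicates 6 and 3, at 3.61 and 3.59, which were also highest in fibroblast genes, and with the fibroblast level as a covariate 1 of the 23 was higher at 0.25. Cry1 was 0.24, Nfil3 0.25 and Nr1d2 0.12. Nr1d2 was the 1 clock gene whose groups did not overlap, while 1.3% of all genes tested had every cocaine library above every saline one. The promoters of 2 of these genes and of the called gene Unc13b are shown, because they hold clock-related motifs. They are from RefSeq in build GRCm38.p6, and run from 250 bases before to 50 after each gene's start, 5′ to 3′. Capitals mark a CACGTG (E-box) or a TTATGTAA (D-box), searched on both strands.
Per3: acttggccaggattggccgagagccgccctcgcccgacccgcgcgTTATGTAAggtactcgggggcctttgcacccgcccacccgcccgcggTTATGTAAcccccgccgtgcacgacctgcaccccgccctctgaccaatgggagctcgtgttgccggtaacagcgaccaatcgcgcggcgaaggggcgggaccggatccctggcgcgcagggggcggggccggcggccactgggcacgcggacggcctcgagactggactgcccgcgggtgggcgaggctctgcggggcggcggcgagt
Cry1: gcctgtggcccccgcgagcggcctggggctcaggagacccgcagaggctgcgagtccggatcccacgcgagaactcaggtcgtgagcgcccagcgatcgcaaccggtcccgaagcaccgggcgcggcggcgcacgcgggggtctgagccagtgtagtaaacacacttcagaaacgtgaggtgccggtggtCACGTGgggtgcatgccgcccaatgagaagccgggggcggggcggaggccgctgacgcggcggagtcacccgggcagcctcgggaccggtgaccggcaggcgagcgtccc
Unc13b: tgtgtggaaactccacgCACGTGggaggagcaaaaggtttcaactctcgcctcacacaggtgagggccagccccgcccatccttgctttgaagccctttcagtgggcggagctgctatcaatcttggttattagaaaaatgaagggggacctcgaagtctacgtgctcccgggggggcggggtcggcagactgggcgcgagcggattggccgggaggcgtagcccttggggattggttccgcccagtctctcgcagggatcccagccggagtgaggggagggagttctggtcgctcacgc
Per3 is on the minus strand at chr4:151044616-151044915, Cry1 on the minus strand at chr10:85185005-85185304 and Unc13b on the plus strand at chr4:43058703-43059002. Per1, Tef and Bhlhe41 held an E-box as well. An E-box was in 4 of the 18 clock genes and in 1 of the 16 called genes that had a promoter in the table, and in 7.15% of all 32851 promoters. A D-box was in 2 of the clock genes and 0 of the called ones, and in 0.938% of all. TGACGTCA (CRE) was in 1 clock gene, 0 called genes and 1.79% of promoters, and AAAGGTCA, the NR4A response element, in 0, 0 and 1.51%.

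**Figure D5:**
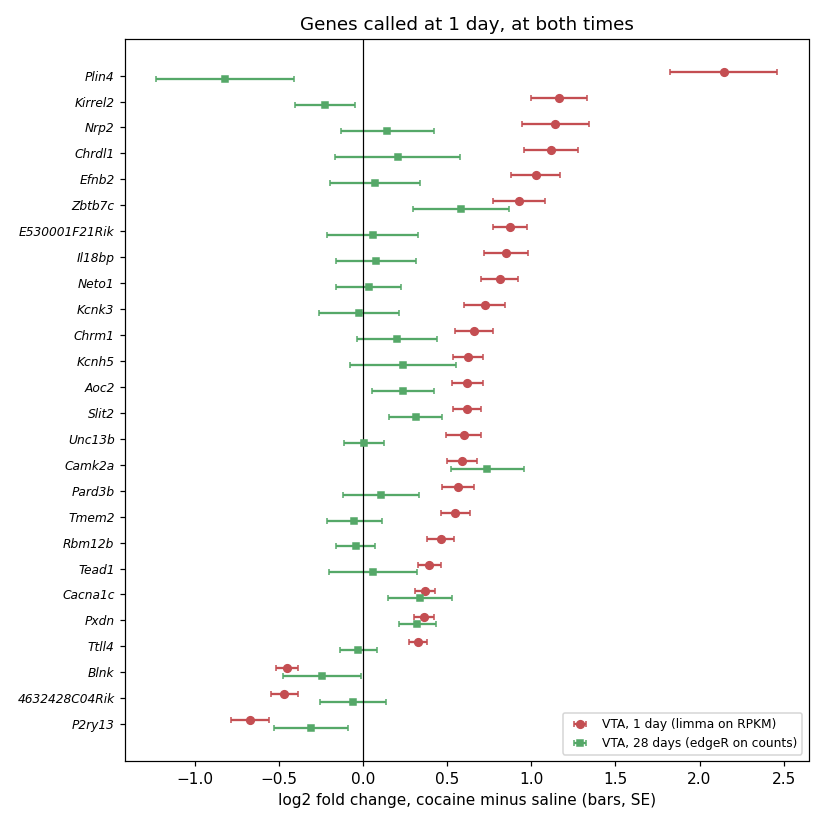
Log2 fold change of cocaine over saline, with its SE, for 26 of the 28 genes called in the VTA at 1 day, at 1 day (circles, limma on RPKM, 6 against 6) and at 28 days (squares, edgeR on counts, 6 against 5). Plin4 is positive at 1 day and negative at 28 days, and the 3 plotted genes that were lower at 1 day are negative at both.

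The VTA at 28 days was measured in other libraries, with its own table and normalization. No gene of 16937 was called by edgeR (0%) at an adjusted p under 0.05, with 1942 at an unadjusted p under 0.05, while DESeq2 called 74. The difference between the times was not tested. All 28 genes called at 1 day were tested at 28 days, and 21 kept their sign. The share of all genes that kept their sign is not given here. Camk2a had a log2 fold change of 0.74 (unadjusted p = 0.00511, edgeR) and Pxdn one of 0.32 (unadjusted p = 0.0117, edgeR), with groups that overlapped in both. Efnb2 and Nrp2 were 0.072 and 0.15, Neto1 0.034 and Kcnk3 -0.024. Plin4 was -0.82, and the 24 glucocorticoid-induced genes had a median of -0.33. All 14 fibroblast genes had negative fold changes at 28 days, with a median of -1.10, and at 1 day their median was 1.46. The medians of both lists thus differed in sign between the times.

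The NAc and PFC at 1 day were compared as a description, with no test. The labels do not say whether the regions came from the same mice. Plin4 was higher after cocaine in both, by 2.39 in the NAc and 2.17 in the PFC on the log2 scale, and its groups did not overlap in either. Fkbp5 was 0.24 and 0.48 (groups separate in the PFC), and Sult1a1 0.74 and 0.66. Kirrel2 was 0.49 in the NAc, where its groups were separate, and 0.41 in the PFC. Efnb2 was -0.032 and 0.039, Nrp2 -0.24 and -0.19, and Camk2a 0.021 and -0.07. P2ry13 was -0.15 in the NAc. Of the 28 called genes, 20 had the same sign in the NAc and 9 in the PFC. The share of all genes with the same sign is not given here. The NAc values rest on normalized counts and the PFC values on RPKM, so the 2 numbers are not on one scale.

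Genes higher in the VTA after cocaine were also compared with their level in the PFC. In saline mice at 28 days, in tables normalized separately, 5442 of the 15042 genes (36.18%) were more abundant in the PFC than in the VTA. Of the 920 genes higher at 0.25 this held for 463 (50.33%), and of the 349 lower for 63 (18.05%). The median log2 ratio of PFC over VTA was -0.17 over all genes tested, 0.005 for the higher and -0.66 for the lower genes. The higher genes were also longer, with a median length of 4025.5 bases, against 2980 over all genes tested and 3122 for the lower ones. The part of length or of tissue content in these results was not tested.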

How the data were processed

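Libraries were RNA-seq of tissue punches. The authors aligned reads with STAR 2.4.1d to mm9 (Ensembl annotation) and deposited RPKM values, computed with edgeR, for the VTA and PFC at 1 day, and counts for the NAc at 1 day and the VTA and PFC at 28 days. RPKM is normalized to gene length and library size, and counts are raw. The counting tool and strand setting are not given in the sources used here. The deposited tables also hold the authors' fold changes and p-values, which were not used, and 6 columns of the VTA 1-day table and 24 over all tables read belong to no sample used here. Members and lists were chosen with earlier results of these data known. RPKM was tested with limma 3.58.1 in R 4.3.3 on log2(RPKM + 0.1), at a mean of at least 0.5, with Benjamini-Hochberg adjustment and an adjusted p under 0.05. This scale understates changes of low genes. Counts were tested with edgeR 4.0.16 (filterByExpr, TMM, quasi-likelihood). Named genes were all called genes, the 10 largest separated differences in each direction at an adjusted p under 0.25, up to 4 members of each of 32 lists, and 5 genes the study followed. Whole reads were recovered from RPKM for 23806 of 23806 genes with reads (within 0.01 of a whole number), and served for edgeR and DESeq2 1.42.0. Every pair of libraries within a group differed by more than counting noise. List summaries are counts and medians with no test. Alternatives were the pseudocount, the filter, the spread estimate, median centring, the count tools, a replicate block, gene list levels as covariates and leaving out each library. Some items are not reported here. Scripts were tested on simulated data.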

Additional observations from a re-analysis of the deposited data

Results flagged for a closer look

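A library standing apart from the other 5 of its group was sought by the gap to its nearest neighbour as a share of the group's range, set against Dixon's critical value for 6 libraries. Over 158 groups tested, 17 passed. For normally distributed values chance passes about 1 in 20 groups. Genes were judged on RPKM and lists on the log2 scale, so this rate may not hold for genes with skewed RPKM values. Cocaine replicate 6 was the highest of its group for Col5a1 (0.884), Insl6 (0.717), Unc13b (0.714), Sult1a1 (0.707) and Gdf10 (0.701), and the lowest for the neuropeptides and opioid system list (0.769). Cocaine replicate 3 was the lowest for dopamine synthesis and transport (0.747). Saline replicate 4 was the lowest of its group for dopamine synthesis and transport (0.661), dopamine neuron identity factors (0.688), dopamine neuron subtype and excitability genes (0.693) and Nr4a3 (0.715), and the highest for 4632428C04Rik (0.652). Saline replicate 6 was the highest for Cartpt (0.996) and Sult1a1 (0.787), saline replicate 3 for Kirrel2 (0.824), saline replicate 2 for E530001F21Rik (0.664) and saline replicate 1 for the hippocampal field list (0.668).

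Plin4 had fold changes of opposite sign at the 2 times in the VTA. Plin4 was 2.14 on the log2 scale at 1 day and -0.82 at 28 days. The difference between the times was not tested.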

How the results depend on the processing

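Against 28 genes called in the VTA at 1 day, a pseudocount of 1 gave 21, an intensity trend 10, median centring 7 and no filter on low values 2. On recovered reads edgeR called 55 and DESeq2 695, which held 25 and 28 of the 28. The level of cortical genes as a covariate gave 0, and, chosen after seeing the data, that of fibroblast genes gave 2 and that of dopamine genes 33, which held 1 and 7 of the 28. These levels themselves differed between the groups, so such fits cannot tell them apart from treatment. An adjusted p under 0.25 gave 1269. Leaving out 1 library gave between 0 and 54. A replicate block called 13, of which 7 were among the 28. The labels do not say that the numbers mark a shared animal or batch, same-numbered libraries deviated together (r over 0.1) in 4 of 6 pairs, and 2 of 6 cocaine libraries correlated best with their own number, so not every pair passed 0.1 and the numbers were not taken as pairs. No paired analysis was possible at 28 days because those columns carry no numbers matching the labels' replicates. At 28 days edgeR called 0 and DESeq2 74, and leaving out any library gave 0 in edgeR. With the cortical level as a covariate the log2 fold change changed sign for Mgp (-0.032), Lum (-0.033), Fosl2 (-0.070), Col3a1 (-0.15), Rasgrf2 (0.040), Nfil3 (-0.016), Pcdh10 (0.019), H2-Aa (-0.038), Nr4a1 (-0.32) and Cartpt (-1.62). It also did so for Nr4a1 with the fibroblast level (-0.080), for Cbl with median centring (-0.017) and for Cartpt in edgeR (-3.40). None of these was called at 0.05, and the cause was not tested. Over single named genes, 2284 values kept their direction and side of the threshold, 425 lost the threshold, 110 passed it and 13 changed sign. Only the 28 called genes could lose the threshold, so all 425 losses were theirs, and most values that kept their side were of genes not called. Of the 28, 2 were called in at least 6 of the 12 fits that left out 1 library. Median centring lowered the microglia list's median to -0.46 and the glucocorticoid-induced list's to 0.48, with no change of sign.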

Other observations

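Genes of tissue next to the VTA differed widely between libraries without passing the test. The 9 tested hypothalamic and mammillary genes all had positive fold changes, with a median of 1.44 on the log2 scale, and 0.82 without cocaine replicate 6. Their mean log2 level was -0.78 to 1.86 after cocaine and -0.90 to 0.13 after saline. The 6 serotonin neuron genes were also all positive, with a median of 0.65 at 1 day and -1.48 at 28 days. Ttr, a carrier protein of the choroid plexus, was at 140.4 RPKM in cocaine replicate 6 and 58 in saline replicate 6, against at most 4.96 in the other 10 libraries.

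Of 22 endothelial and pericyte genes 2 were higher and 0 lower at an adjusted p under 0.25 in limma, against 6.12% and 2.32% of all genes tested. Their median was 0.40, and -0.04 with the fibroblast level as a covariate. Interferon-responsive and antigen presentation genes had a median of 0.27 over 22 genes at 1 day, and -0.71 at 28 days. Neuropeptides and opioid system genes had a median of 0.38 over 26 genes. At 0.25, 2 of the 26 were higher and 1 lower, against 6.12% and 2.32% of all genes tested.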
